A study of Mus musculus with 12 samples.

Results

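The genes described here encode voltage-gated potassium channels and the proteins that assemble with them. They were taken by symbol, as the members of the Kcna, Kcnb, Kcnc, Kcnd, Kcne, Kcnf, Kcng, Kcnh, Kcnq, Kcns and Kcnv families with the Kcnab and Kcnip subunits. The rule found 47 genes among the 27381 measured on the arrays, of which 26 encode pore-forming subunits, 10 encode silent modifier subunits and 11 encode auxiliary subunits. The study asked whether learning changes expression in a limbic network. It profiled the anterior cingulate cortex (ACC) and the hippocampus (HC) of C57B16/J mice, as the labels spell the strain (C57Bl6/J in the paper). There were 12 arrays, 3 for each of the 4 groups of region and training. In both training groups the mice were operated on at 8 to 12 weeks of age, recovered for 7 days, were deprived of water and were head fixed on a ball floating on air. Trained mice learned to answer a visual cue for water, over 27 days on average, whereas control mice, called untrained in the titles, received water at random intervals. Each array held RNA pooled from several mice, with 5 mice stated for an ACC pool and 7 for an HC pool, so the spread among the 3 pools of a group is a spread among pools and not among animals. Pools 1 and 2 of every group belong to batch 1 and pool 3 to batch 2. The paper describes 2 pools per condition and a later repeat of the whole experiment with 1. Mice, date and processing can therefore not be told apart in differences between batches. Values below are deposited log2 intensities after robust multi-array averaging (RMA), which compare a gene between pools but not 1 gene with another.

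Voltage-gated potassium channels open when the membrane is depolarised and let potassium leave the cell, which brings the membrane back to rest and sets how sharp, how delayed and how frequent spikes are. Pore-forming subunits assemble as tetramers. Silent subunits do not form working channels alone and join Kcnb subunits to alter their gating, while the beta subunits, the calcium-binding KChIPs and the single-span Kcne proteins attach to the pore and change its traffic or its kinetics. In cortical and hippocampal pyramidal cells, Kcnd channels carry the transient A-type current of the dendrites, Kcnq channels carry the slow M current, Kcna channels sit along axons, and Kcnc channels let interneurons fire fast.

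Array medians lay between 3.34 and 3.42, and arrays of one group correlated at r = 0.994 to 0.995 across genes. As a background, 1365 odorant and vomeronasal receptor genes read 1.42 at their median and 2.76 at their 95th percentile, which 39 of the 47 channel genes exceeded on average. The other 8 were Kcna7, Kcna10, Kcne1, Kcne3, Kcne4, Kcnh8, Kcnq1 and Kcnv2, whose values lay in the range of genes not expected in brain. The labelled regions had their markers: 8 of 11 hippocampal subfield genes passed the test as higher in HC (1 lower), and 9 of 13 cortical layer genes as lower (1 higher). Markers of other cells were called higher in HC for 10 of 10 choroid plexus, 11 of 11 oligodendrocyte, 7 of 10 astrocyte, 5 of 8 oligodendrocyte precursor, 3 of 9 microglial, 1 of 8 endothelial and 7 of 11 thalamic genes, and of these lists only the thalamic one had a gene that was lower (1). Over all genes 9.71% were called higher and 8.74% lower, and the endothelial share was near that. Of 12 GABAergic interneuron genes 1 was higher and 2 were lower. In such pools of whole tissue, fewer cells of a type and less RNA per cell cannot be told apart, and the part of these markers in the channel results was not tested.

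Many of the channel genes differed between the regions, mostly toward higher values in ACC. With control and trained pools in 1 comparison, 22 of 47 passed the test (46.8%) against 18.5% of all genes, using limma with Benjamini-Hochberg adjustment over all 27381 genes and a threshold of 0.05. Of these, 16 were lower in HC (34.0% against 8.74% of all genes) and 6 were higher (12.8% against 9.71%). The 22 were all among the 39 genes above the receptor percentile, where 56.4% were called against 27.7% of the 16048 genes above it. The median HC minus ACC difference of the 47 genes was -0.13, and that of all genes was -0.01. For 19 of the 47 genes (40.4%) the 6 HC pools and the 6 ACC pools did not overlap, against 11.1% of all genes. By role, 1 of 26 pore-forming genes was higher in HC, 11 were lower and 14 did not pass. Of the 10 silent subunits 1 was higher and 3 were lower, and of the 11 auxiliary subunits 4 were higher and 2 were lower.

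**Figure D1:**
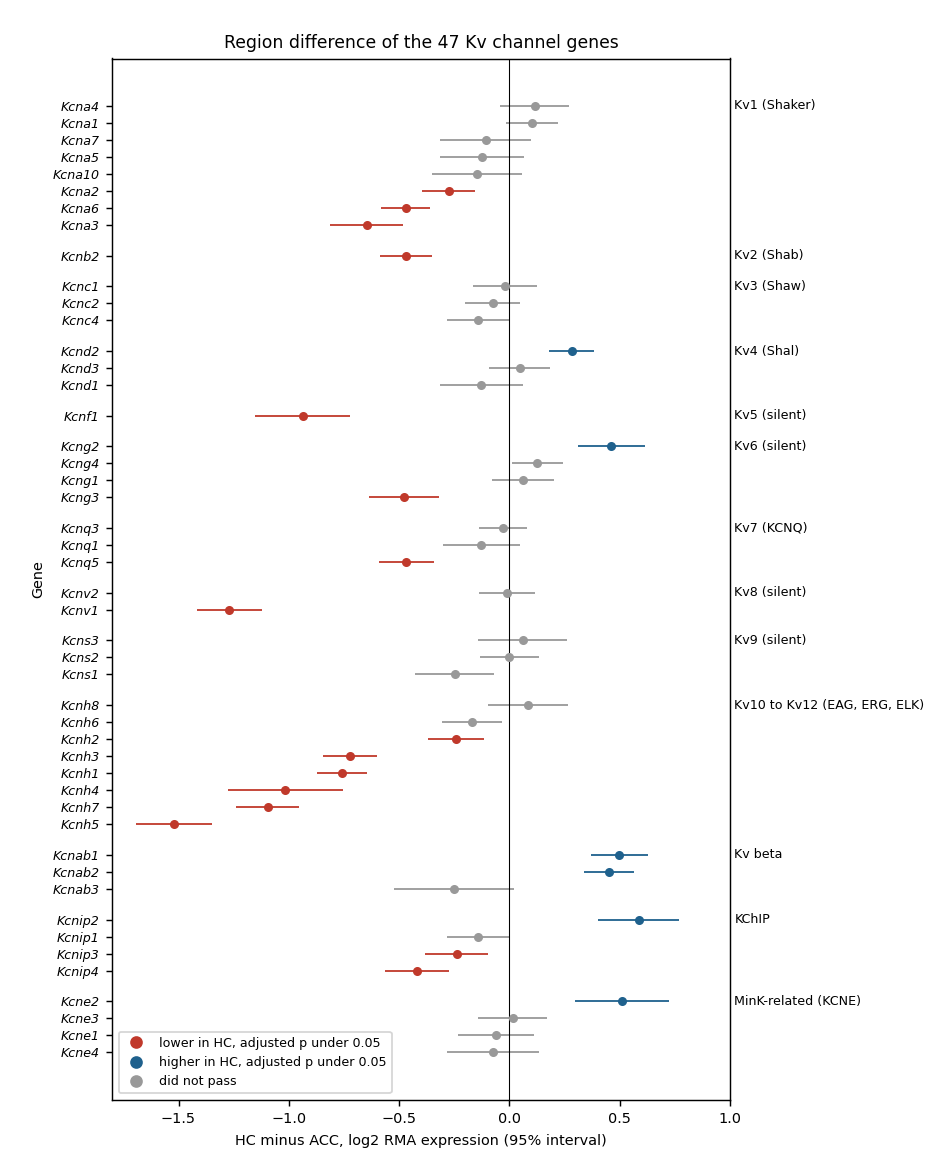
HC minus ACC difference of log2 intensity (horizontal axis) for each of the 47 channel genes (vertical axis), grouped by family, as the mean of control and trained pools with 95% confidence intervals from limma. The 22 genes that passed the adjusted threshold run from Kcnh5 at -1.52 to Kcnip2 at 0.59.

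The Kcnh family, which holds the EAG, ERG and ELK channels, carried the largest difference: 6 of its 8 members were lower in HC, none was higher, and Kcnh6 and Kcnh8 did not pass. Kcnh5 encodes a channel of the EAG type that does not inactivate and was the gene with the largest difference of the 47. Kcnh5 read 7.37, 7.24 and 7.17 in the ACC control pools and 7.24, 7.41 and 7.18 in the ACC trained pools. In HC it read 5.86, 5.85 and 5.80 in the control pools and 5.75, 5.38 and 5.85 in the trained pools. Every HC pool was below every ACC pool, a difference of -1.52 on the log2 scale or a 2.87-fold higher level in ACC (SE 0.08, limma adjusted p = 6.40e-08). Kcnh1, the other EAG channel, read 6.86, 6.84 and 6.81 in the ACC control pools and 6.86, 7.01 and 7.01 in the ACC trained pools. It read 6.16, 6.14 and 6.02 in the HC control pools and 6.13, 6.15 and 6.21 in the HC trained pools. The regions were again apart, with a difference of -0.76 (SE 0.05, limma adjusted p = 4.75e-07), with little spread among the pools of either.

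Of the ERG channels, which pass current mainly as they recover from inactivation, Kcnh7 had the widest gap. Kcnh7 read 8.55, 8.53 and 8.52 in the ACC control pools and 8.59, 8.62 and 8.55 in the ACC trained pools. Its HC values were 7.36, 7.63 and 7.44 in the control pools and 7.40, 7.33 and 7.63 in the trained pools. No pool of one region reached the other, and the difference was -1.10, 2.14-fold in favour of ACC (SE 0.07, limma adjusted p = 1.82e-07). Kcnh2, whose human counterpart repolarises heart muscle, differed by only -0.24 (SE 0.06, limma adjusted p = 0.0114), and its pools overlapped between regions with ACC at 5.46 to 5.66 and HC at 5.17 to 5.50. In the 8 arrays of batch 1 alone, Kcnh2 did not pass (adjusted p = 0.0693, limma). Kcnh6, the remaining ERG gene, had a difference of -0.17 with a 95% confidence interval of -0.31 to -0.03 and did not pass (limma adjusted p = 0.084).

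The ELK channels, which open at rather negative potentials, come from Kcnh3, Kcnh4 and Kcnh8, of which Kcnh3 and Kcnh4 were lower in HC. Kcnh3 read 7.99, 8.03 and 7.80 in the ACC control pools and 8.05, 8.12 and 8.10 in the ACC trained pools. In the hippocampus Kcnh3 read 7.30, 7.36 and 7.21 in the control pools and 7.31, 7.23 and 7.34 in the trained pools. All HC values were below all ACC values, with a mean difference of -0.72 (SE 0.06, limma adjusted p = 1.69e-06). Kcnh4 read 4.84, 4.78 and 4.44 in the ACC control pools and 4.86, 4.48 and 4.46 in the ACC trained pools. Its hippocampal values were 3.41, 3.26 and 3.91 in the control pools and 3.90, 3.57 and 3.71 in the trained pools. The mean difference was -1.02, a 2.02-fold higher level in ACC (SE 0.12, limma adjusted p = 5.84e-05), and it was unequal between batches at -1.20 in batch 1 and -0.64 in batch 2, with no overlap of regions in either. Kcnh8 lay near the receptor background and did not pass (0.09, interval -0.10 to 0.27).

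Upstream sequence is shown for 4 of the Kcnh genes that were lower in HC together, and for Kcnd2 and Kcnip2, a pore and its auxiliary subunit that were both higher in HC (described below). Each run holds the 250 bases before a gene's start in the RefSeq table for build GRCm38.p6, read 5′ to 3′ along the gene, with capitals marking matches on either strand to GGGCGG, the GC box.
Kcnh5, chr12:75177333-75177582, minus strand: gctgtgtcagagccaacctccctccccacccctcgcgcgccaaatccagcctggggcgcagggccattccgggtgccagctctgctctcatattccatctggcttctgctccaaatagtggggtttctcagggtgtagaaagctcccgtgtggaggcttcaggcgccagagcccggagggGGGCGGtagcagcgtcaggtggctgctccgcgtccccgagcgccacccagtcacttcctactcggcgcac
Kcnh7, chr2:63184288-63184537, minus strand: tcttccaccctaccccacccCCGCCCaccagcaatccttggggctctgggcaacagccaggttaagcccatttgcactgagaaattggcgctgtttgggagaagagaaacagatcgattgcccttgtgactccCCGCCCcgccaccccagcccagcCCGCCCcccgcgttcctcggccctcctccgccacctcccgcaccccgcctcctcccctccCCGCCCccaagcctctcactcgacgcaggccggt
Kcnh4, chr11:100759779-100760028, minus strand: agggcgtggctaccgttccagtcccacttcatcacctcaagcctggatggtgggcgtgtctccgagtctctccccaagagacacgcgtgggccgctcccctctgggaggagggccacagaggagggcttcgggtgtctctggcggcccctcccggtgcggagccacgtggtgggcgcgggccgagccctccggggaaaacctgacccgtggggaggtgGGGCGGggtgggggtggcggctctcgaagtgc
Kcnh1, chr1:192190527-192190776, plus strand: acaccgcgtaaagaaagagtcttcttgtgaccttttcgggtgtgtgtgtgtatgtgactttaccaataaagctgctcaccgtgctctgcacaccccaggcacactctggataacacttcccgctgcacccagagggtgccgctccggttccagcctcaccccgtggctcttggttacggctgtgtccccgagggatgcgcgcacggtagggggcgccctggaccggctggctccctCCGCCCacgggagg
Kcnd2, chr6:21215096-21215345, plus strand: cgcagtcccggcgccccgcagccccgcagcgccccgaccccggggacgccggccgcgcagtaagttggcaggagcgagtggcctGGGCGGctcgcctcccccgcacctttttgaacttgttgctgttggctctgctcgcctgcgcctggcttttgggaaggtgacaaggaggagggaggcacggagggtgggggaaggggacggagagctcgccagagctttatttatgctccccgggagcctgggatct
Kcnip2, chr19:45816064-45816313, minus strand: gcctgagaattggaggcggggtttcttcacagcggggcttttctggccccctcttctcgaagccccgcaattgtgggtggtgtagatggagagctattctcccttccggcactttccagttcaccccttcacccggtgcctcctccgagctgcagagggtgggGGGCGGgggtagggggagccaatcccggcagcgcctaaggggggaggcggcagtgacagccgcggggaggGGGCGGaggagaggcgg
Kcnh7 had 4 GC boxes, Kcnip2 had 2 and the other 4 sequences had 1 each. The sequences held 15 to 22 CpG dinucleotides, against a median of 6 and an upper quartile of 16 over all 32851 upstream sequences of the table. The median over the upstream sequences of the channel genes was 8, so the printed ones are not typical of the set. None of the 6 held TATAAA (the TATA element), CAGCTG (an E-box) or TGACGTCA (the cAMP response element), which do not overlap with one another or with the GC box. Over all upstream sequences the GC box occurred in 32.7%, TATAAA in 12.4%, CAGCTG in 13% and TGACGTCA in 1.55%. Of the 47 channel genes 34 were in the table with 50 starts, of which 48% held the GC box, 22% held CAGCTG and none held the other 2 motifs. These matches describe the letters and do not locate bound sites, and the printed genes that were lower and those that were higher in HC both had GC boxes.

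Of the silent modifier subunits, those of the Kcnv and Kcnf families came next in size. Kcnv1, which joins Kcnb channels and alters their gating, read 7.75, 7.89 and 7.65 in the ACC control pools and 7.64, 7.92 and 7.91 in the ACC trained pools. Its HC values were 6.49, 6.56 and 6.49 in the control pools and 6.57, 6.43 and 6.61 in the trained pools. All 6 HC pools were below all 6 ACC pools, and the difference of -1.27 was the second largest of the 47 (2.41-fold higher in ACC, SE 0.07, limma adjusted p = 7.02e-08). Kcnf1, the silent subunit known as Kv5, read 6.08, 6.67 and 6.54 in the ACC control pools and 6.36, 6.51 and 6.52 in the ACC trained pools. In HC Kcnf1 read 5.39, 5.72 and 5.67 in the control pools and 5.40, 5.54 and 5.33 in the trained pools. The gap was -0.94 (SE 0.10, limma adjusted p = 2.10e-05) and the regions did not overlap.

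The Kcng genes, a further group of silent subunits, went both ways. Kcng3 read 5.38, 5.80 and 5.61 in the ACC control pools and 5.57, 5.65 and 5.72 in the ACC trained pools. It read 5.10, 5.23 and 5.33 in the HC control pools and 4.99, 5.12 and 5.09 in the HC trained pools. Kcng3 was thus lower in every HC pool, with a difference of -0.48 (SE 0.07, limma adjusted p = 5.03e-04). Kcng2 read 3.01, 3.11 and 3.12 in the ACC control pools and 3.05, 3.01 and 3.21 in the ACC trained pools. Its values in HC were 3.54, 3.42 and 3.58 in the control pools and 3.77, 3.59 and 3.40 in the trained pools. Every HC pool exceeded every ACC pool, a difference of 0.46 (SE 0.07, limma adjusted p = 4.58e-04). Kcng1 (0.06) and Kcng4 (0.13) did not pass, nor did Kcnv2 (-0.01) or the Kcns genes. Of the last, Kcns1 was nearest to the threshold at -0.25 (limma adjusted p = 0.0551), while Kcns2 and Kcns3 differed by -0.00165 and 0.06.

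The partner of these silent subunits, Kcnb2, which carries delayed rectifier current, was itself lower in HC. Kcnb2 read 6.31, 6.26 and 6.33 in the ACC control pools and 6.39, 6.45 and 6.50 in the ACC trained pools. In HC it was measured at 5.86, 5.97 and 5.93 in the control pools and 5.77, 5.89 and 6.01 in the trained pools. The difference was -0.47 (SE 0.06, limma adjusted p = 5.43e-05) and no HC pool reached an ACC pool.

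Among the 8 Kcna genes, 3 were lower in HC and none was higher. Kcna3, a subunit of delayed rectifier channels best known from lymphocytes, read 6.86, 7.11 and 7.18 in the ACC control pools and 7.15, 7.38 and 7.03 in the ACC trained pools. Its HC values were 6.29, 6.47 and 6.46 in the control pools and 6.46, 6.51 and 6.61 in the trained pools. The regions were separate, with a difference of -0.65 (SE 0.08, limma adjusted p = 5.55e-05). Kcna6 read 6.34, 6.30 and 6.17 in the ACC control pools and 6.33, 6.34 and 6.29 in the ACC trained pools. In HC Kcna6 read 5.84, 5.80 and 5.89 in the control pools and 5.76, 5.80 and 5.86 in the trained pools. All HC pools were lower, and the difference was -0.47 (SE 0.05, limma adjusted p = 2.77e-05). Kcna2, the main axonal subunit together with Kcna1, was lower in HC with a smaller difference of -0.28 (SE 0.05, limma adjusted p = 0.00306), with values of 4.48 to 4.62 there against 4.68 to 4.91 in ACC. It did not pass in batch 1 alone (adjusted p = 0.0574, limma). Kcna1 did not pass and had the opposite sign (0.10, interval -0.02 to 0.22), and Kcna4, which carries a fast inactivating current, differed by 0.11 (interval -0.04 to 0.27). Kcna5, Kcna7 and Kcna10 differed by -0.12, -0.11 and -0.15, none past the threshold.

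Kcnq5 and Kcnq3 both encode subunits of the M current, a slow brake on repeated firing, and only Kcnq5 passed. Kcnq5 read 8.71, 8.58 and 8.80 in the ACC control pools and 8.82, 8.75 and 8.70 in the ACC trained pools. It read 8.20, 8.34 and 8.36 in the HC control pools and 8.24, 8.15 and 8.27 in the HC trained pools. HC was lower in every pool, with a difference of -0.47 (SE 0.06, limma adjusted p = 7.25e-05). Kcnq3 had a difference of -0.03 (interval -0.14 to 0.08). The 2 genes were not tested against each other. Kcnq1, a channel of heart and ear, lay near the receptor background and differed by -0.13.

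**Figure D2:**
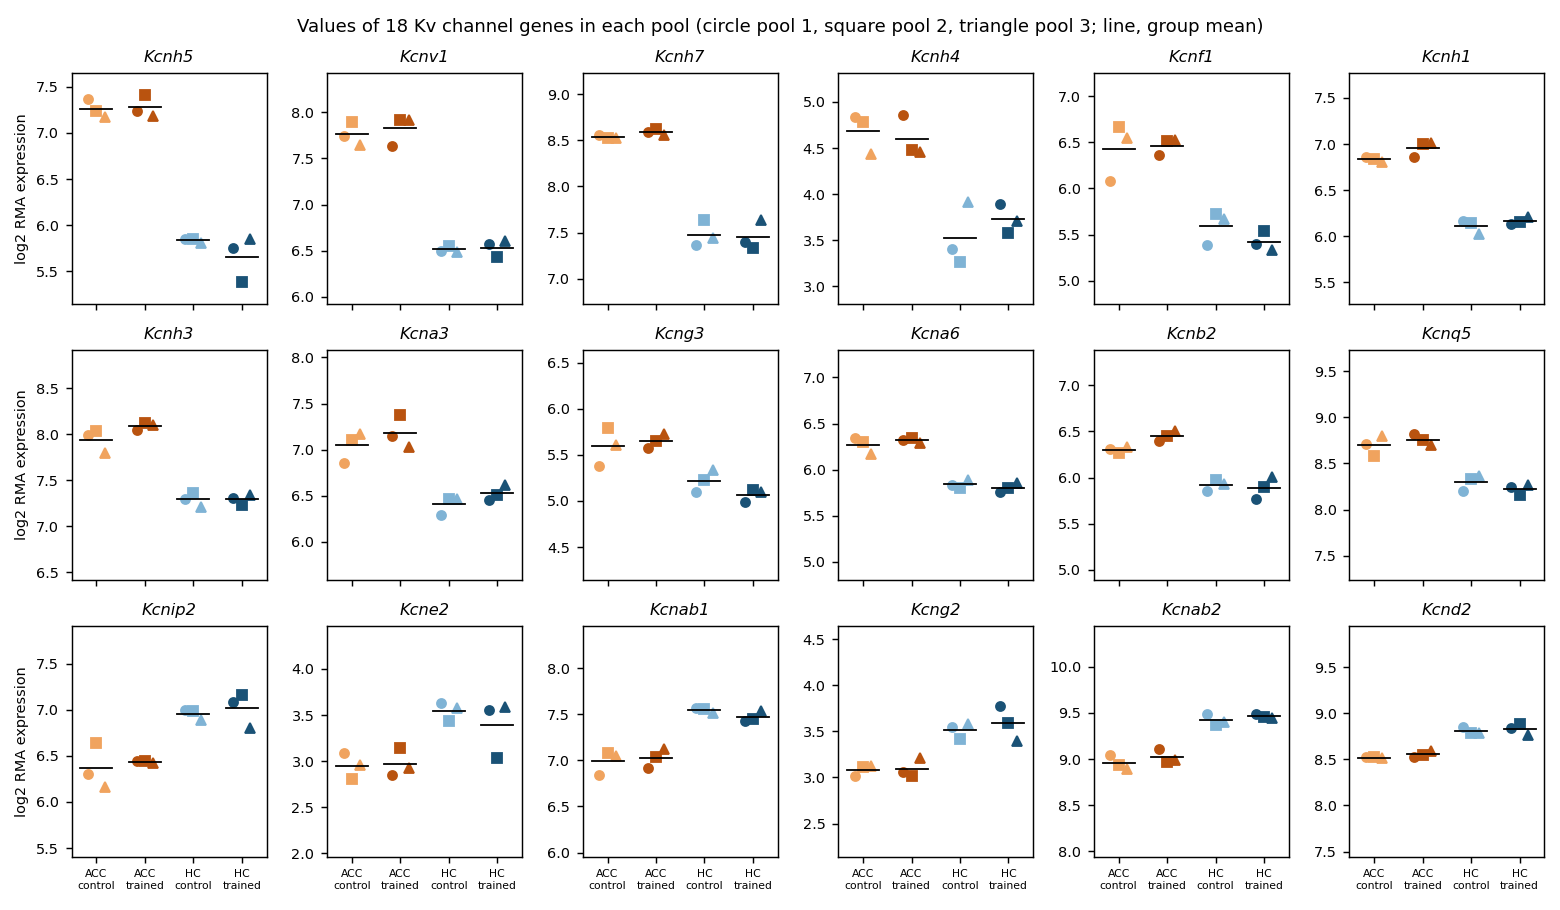
Log2 intensity (vertical axis) in each of the 12 pools for the 18 channel genes with the largest differences between regions in each direction, by group (horizontal axis), with points for pools and bars for group means. For 17 of the 18 the 6 HC pools lie wholly below or wholly above the 6 ACC pools, and Kcne2 is the exception.

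Genes of the A-type channel complex were found on both sides. Kcnd2, the pore of the dendritic A-type current, read 8.52, 8.52 and 8.51 in the ACC control pools and 8.52, 8.55 and 8.59 in the ACC trained pools. In HC Kcnd2 read 8.85, 8.78 and 8.79 in the control pools and 8.84, 8.88 and 8.77 in the trained pools. The step of 0.28 was modest, but no ACC pool reached an HC pool (SE 0.05, limma adjusted p = 8.43e-04), and Kcnd2 was the only pore-forming gene of the 26 that was higher in HC. Kcnd3, the companion pore that interneurons also use, differed by 0.05 (interval -0.09 to 0.19), and Kcnd1 by -0.13 (interval -0.31 to 0.06). Neither passed.

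KChIPs, the calcium-binding subunits of Kcnd channels, differed in both directions. Kcnip2 read 6.30, 6.63 and 6.16 in the ACC control pools and 6.44, 6.44 and 6.42 in the ACC trained pools. Its HC values were 6.99, 6.99 and 6.89 in the control pools and 7.09, 7.16 and 6.80 in the trained pools. It had the largest difference of the higher genes, 0.59 or 1.50-fold (SE 0.08, limma adjusted p = 2.96e-04), with all HC pools above all ACC pools. Kcnip4, some variants of which slow the inactivation of the channel, was lower in HC with a difference of -0.42 (SE 0.07, limma adjusted p = 6.67e-04), at 6.91 to 7.15 against 7.33 to 7.62 in ACC. Kcnip3, also studied as a calcium-dependent repressor of transcription, was lower with a difference of -0.24 (SE 0.07, limma adjusted p = 0.0234), but its pools overlapped and it lost the call when any 1 of 5 arrays was left out (ACC control pool 3, ACC trained pool 1, HC control pool 1 or HC trained pools 1 or 2, with adjusted p up to 0.0598, limma). Kcnip1, found mainly in interneurons, did not pass (-0.14, limma adjusted p = 0.155).

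The 2 transmembrane partners of this complex in the list of 30 channel partners, Dpp6 and Dpp10, went opposite ways. Dpp6 was at 7.71 to 7.93 in ACC and 8.25 to 8.39 in HC, a difference of 0.50 (SE 0.06, limma adjusted p = 3.94e-05). Dpp10 was at 8.56 to 8.82 in ACC and 7.26 to 7.71 in HC, a difference of -1.26 or 2.39-fold (SE 0.08, limma adjusted p = 4.02e-07). Neither gene's regions overlapped. In all, 28 of the 30 partners were measured, and 4 were higher and 8 lower in HC (42.9% called, against 18.5% of all genes, of which 9.71% higher and 8.74% lower). After Dpp6, the largest higher differences were those of Fgf13, a fibroblast growth factor homologue that binds sodium channels (0.48, SE 0.06, limma adjusted p = 4.53e-05), and Ptprz1, a receptor-type phosphatase of glia (0.44, SE 0.06, limma adjusted p = 9.85e-05). After Dpp10, the largest lower differences belonged to Dlg1, a scaffold that binds the tails of Kcna channels (-0.48, SE 0.06, limma adjusted p = 7.01e-05), and Adam23, a receptor of the Lgi proteins (-0.33, SE 0.05, limma adjusted p = 4.56e-04).

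Both beta subunits that passed were higher in HC. These are cytoplasmic proteins bound to Kcna channels, and Kcnab1 confers fast inactivation on them. Kcnab1 read 6.85, 7.08 and 7.05 in the ACC control pools and 6.92, 7.03 and 7.12 in the ACC trained pools. Its values were 7.57, 7.55 and 7.51 in the HC control pools and 7.43, 7.45 and 7.53 in the HC trained pools. The difference was 0.50, 1.41-fold (SE 0.06, limma adjusted p = 5.73e-05), with the regions apart. Kcnab2, which helps to place Kcna channels on the axon, read 9.04, 8.94 and 8.89 in the ACC control pools and 9.11, 8.97 and 8.99 in the ACC trained pools. In HC Kcnab2 read 9.49, 9.37 and 9.40 in the control pools and 9.49, 9.46 and 9.44 in the trained pools. It was higher by 0.45 (SE 0.05, limma adjusted p = 4.66e-05), again with no overlap. The 3 Kcna genes that passed, whose products these subunits bind, had the opposite direction. Kcnab3 did not pass (limma adjusted p = 0.204), and its difference was -0.45 in batch 1 and 0.14 in batch 2.

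The 3 Kcnc genes, Kcnc1, Kcnc2 and Kcnc4, did not pass. Kcnc1 and Kcnc2 are the pores that let parvalbumin interneurons fire at high rates. Kcnc1 was at 6.14 to 6.46 in ACC and 6.18 to 6.42 in HC, with a difference of -0.02 (interval -0.16 to 0.12). Kcnc2 was at 6.47 to 6.69 and 6.40 to 6.60, with a difference of -0.08 (interval -0.20 to 0.05). Kcnc4 differed by -0.14 (interval -0.28 to -0.00119, limma adjusted p = 0.161). Of the 12 interneuron markers, Pvalb (-0.18), Gad1 (0.10) and 7 others did not pass, while Vip (-1.09, SE 0.10, limma adjusted p = 5.77e-06) and Npy (-0.71, SE 0.09, limma adjusted p = 8.39e-05) were lower in HC and Ndnf was higher (0.45, SE 0.09, limma adjusted p = 0.00405). The part of these cells in the Kcnc values was not tested.

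Of the 4 Kcne genes, single-span subunits that modify Kcnq, Kcnh and other pores, only Kcne2 passed. Kcne2, which is strongly made by choroid plexus epithelium, read 3.09, 2.80 and 2.95 in the ACC control pools and 2.85, 3.15 and 2.92 in the ACC trained pools. Its HC values were 3.63, 3.44 and 3.58 in the control pools and 3.56, 3.04 and 3.59 in the trained pools. The difference was 0.51 (SE 0.10, limma adjusted p = 0.00271), but HC trained pool 2 fell within the ACC range while the other 5 HC pools lay above it. That pool was also the lowest HC pool for the choroid plexus markers: their mean was 4.64 there and 5.30 to 5.41 in the other HC pools, against 3.19 to 3.38 in ACC. Ttr, which encodes transthyretin and is the most typical of them, was at 10.82, 10.81 and 10.29 in the HC control pools and 11.05, 10.03 and 10.73 in the HC trained pools, and at 4.93 to 5.39 in ACC. HC control pool 3 had a Ttr value of 10.29, a mean of the choroid plexus markers of 5.30 and a Kcne2 value of 3.58. Without HC trained pool 2 the Kcne2 difference was 0.60. The part of choroid plexus in the Kcne2 values was not tested. In batch 1 alone Kcne2 did not pass (adjusted p = 0.0760, limma). Kcne1, Kcne3 and Kcne4 lay near the receptor background and differed by -0.06, 0.02 and -0.08, none past the threshold.

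The comparison of regions was then made within each training group. In control mice 21 of the 47 genes passed (44.7% against 13.3% of all genes), with 6 higher in HC (against 6.93%) and 15 lower (against 6.4%). In trained mice 18 passed (38.3% against 9.3%), with 5 higher (against 4.78%) and 13 lower (against 4.53%). The 18 were all called in control mice as well, where Kcna2, Kcne2 and Kcnh2 passed in addition, and Kcnip3 passed in neither group alone. Kcnh5 differed by -1.42 in control and -1.62 in trained mice, Kcnv1 by -1.25 and -1.29, and Kcnip2 by 0.59 and 0.58. Kcne2 differed by 0.60 in control mice and by 0.42 in trained mice. When batch 1 was taken alone, with 2 pools for each group, 11 genes passed in control mice. Kcna2, Kcne2, Kcng3, Kcnh2 and Kcnip4 each lost the call in control mice when certain single control arrays were left out, HC control pool 1 for each of the 5 among them (adjusted p up to 0.122, limma). Kcnd2 lost it in trained mice without pool 1 or pool 2 of either region's trained group (adjusted p up to 0.0736, limma).

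**Figure D3:**
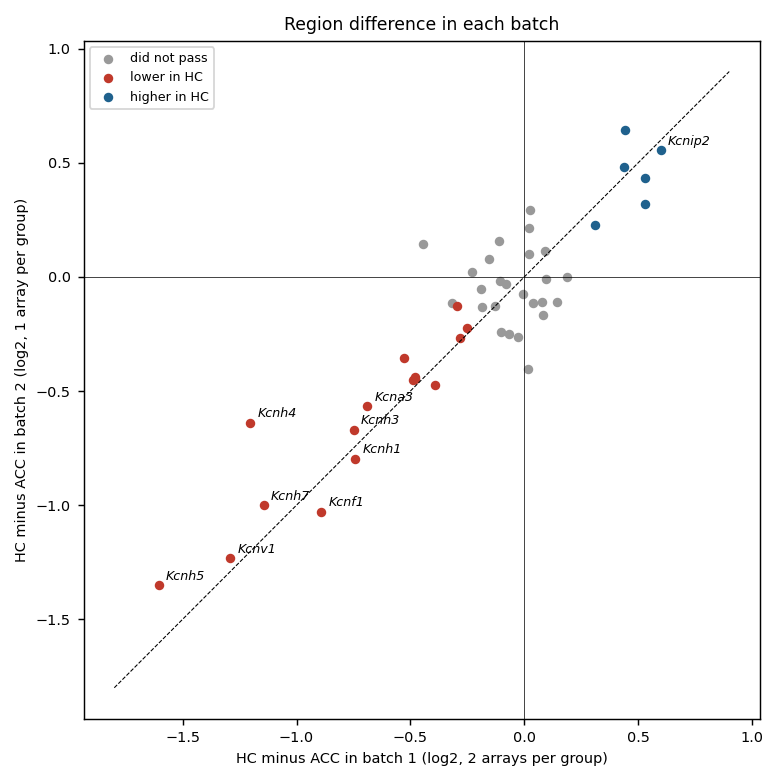
HC minus ACC difference of log2 intensity in batch 1 (horizontal axis, 8 arrays) against batch 2 (vertical axis, 4 arrays) for the 47 channel genes, with the 22 called genes marked. All 22 have the same sign in both batches, and Kcnh5 lies farthest out at -1.61 and -1.35.

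All 22 called genes had the same sign in both batches. Kcnh5 differed by -1.61 in batch 1 and -1.35 in batch 2, Kcnv1 by -1.29 and -1.23, and Kcnf1 by -0.89 and -1.03. On the higher side the values were 0.60 and 0.56 for Kcnip2 and 0.44 and 0.48 for Kcnab2. Among genes that did not pass, Kcna5 showed 0.02 in batch 1 and -0.40 in batch 2, so its value came mainly from the 4 arrays of batch 2.

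Training was compared within each region. No channel gene passed in ACC, in HC, in the mean of both regions or in the region by training term, and neither did any gene of the whole table (0% called in each). At an unadjusted p under 0.05 from limma, 2 of 47 genes passed in ACC (4.26% against 6.95% of all genes), 0 in HC (against 6.82%), 4 in the mean (8.51% against 5.04%) and 0 in the region by training term (against 8.86%). The 95% confidence intervals of single genes stayed between -0.49 and 0.57 in ACC and between -0.47 and 0.57 in HC, and reached 0.20 to either side of the estimate in the median gene. The 22 genes that differed between regions had training differences that ran from -0.09 to 0.15 across ACC and from -0.18 to 0.20 across HC.

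In ACC the smallest p belonged to Kcne3, Kcng4 and Kcna7. Kcne3 read 2.68, 2.64 and 2.64 in control pools and 2.43, 2.20 and 2.54 in trained pools, a trained minus control difference of -0.26 (SE 0.10, limma unadjusted p = 0.0226, adjusted p = 0.649). The trained pools were all below the control pools, at values close to the receptor background. Kcng4 differed by -0.19 (limma adjusted p = 0.655) and Kcna7 by 0.27 (limma adjusted p = 0.745). For 7 of 47 genes (14.9%) the control and trained ACC pools did not overlap, against 11.6% of all genes. Kcna7, Kcna10, Kcnb2, Kcnd2 and Kcnh3 were the 5 with higher trained pools (against 5.66%), and Kcne3 and Kcng4 the 2 with lower ones (against 5.91%). For Kcnd2 the margin was very narrow, at 8.5224 in ACC control pool 2 and 8.5226 in ACC trained pool 1. Kcna7 and Kcna10 averaged below the receptor percentile. The 3 Y-linked genes measured as a check on the sexes in a pool averaged 3.38 to 3.59 in the ACC control pools and 3.89 to 5.11 in the ACC trained pools. In HC they averaged 3.96 to 5.04 in the control and 3.78 to 4.87 in the trained pools, so the control pools of the regions did not overlap in this mean. The labels list 16 male and 18 female mice without saying which pool held which. The mice in the labels are too few to fill every HC pool at the stated size. The paper counts more mice in all than the labels do, with the same number of each sex in the trained and control groups. It does not say how the sexes were divided among the pools. The part of sex was not tested in the training differences or in the region differences of control mice.

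In HC the smallest p belonged to Kcnh2, Kcna10 and Kcns1. Kcnh2 read 5.26, 5.36 and 5.17 in control pools and 5.30, 5.44 and 5.50 in trained pools, a difference of 0.15 (SE 0.08, limma unadjusted p = 0.094, adjusted p = 0.796), and the ranges overlapped. Kcna10 differed by 0.21, with opposite signs in batch 1 (0.44) and batch 2 (-0.24), and Kcns1 by -0.18. Kcnc2 was the 1 gene of 47 (2.13% against 12.3% of all genes) whose HC pools did not overlap, at 6.46, 6.60 and 6.59 in control and 6.40, 6.45 and 6.44 in trained pools, which is a step of -0.12 (interval -0.30 to 0.06).

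**Figure D4:**
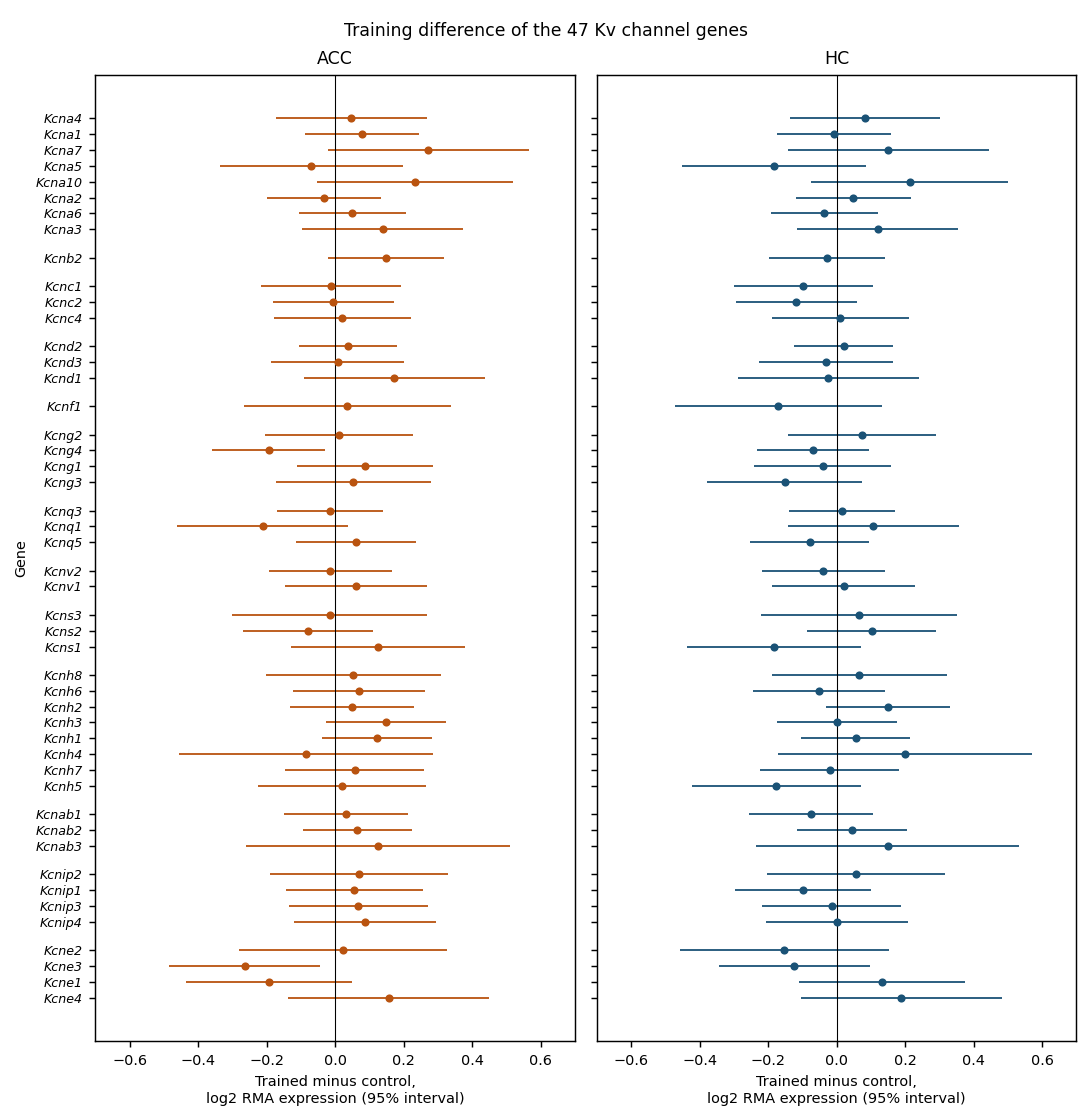
Trained minus control difference of log2 intensity (horizontal axis) in ACC and in HC for the 47 channel genes (vertical axis), with 95% confidence intervals from limma. No gene passed the adjusted threshold in either region, and the intervals stay between -0.49 and 0.57.

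Averaged over both regions, Kcne3, Kcng4 and Kcna10 had the smallest p, with differences of -0.19, -0.13 and 0.22 (limma adjusted p = 0.916, 0.94 and 0.942). In the region by training term, which tests whether training differed between HC and ACC, the smallest p belonged to Kcne1 (0.33), Kcnq1 (0.32, but 0.56 in batch 1 and -0.16 in batch 2) and Kcns1 (-0.31), with limma adjusted p = 0.584, 0.613 and 0.629. Of these genes only Kcng4 and Kcns1 averaged above the receptor percentile. The 22 genes called between regions had region by training values from -0.21 to 0.28, and the lowest unadjusted p among them was 0.134. None of the 28 measured channel partners passed in any of the 4 training comparisons either (lowest limma adjusted p = 0.629).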

How the data were processed

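RNA from pooled mouse tissue was labelled and hybridised by the authors to Affymetrix Mouse Gene 2.0 ST arrays. The deposited values are log2 intensities that the authors made by RMA (affy 1.62.0 in R 3.6.0, per the submitters' processing notes) over probe sets that each stand for 1 Entrez gene. The paper states that the later data were analysed together with the earlier ones. It does not say outright whether RMA was run on both batches jointly or whether values were adjusted for batch. RMA subtracts background and matches array distributions, so a shift shared by most genes would not show. No deposited value was changed. Of 27381 probe sets, 587 had no symbol in the annotation table used here and were not named. Columns were matched to samples by the sample identifiers in the table's header.

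Group means were fitted with limma 3.58.1 in R 4.3.3 (lmFit, eBayes) on all 12 arrays, without a filter. Contrasts gave HC minus ACC, HC minus ACC in each training group, trained minus control in each region and averaged, and the region by training term. P-values were adjusted by Benjamini-Hochberg over all genes (threshold 0.05). The number of arrays limits the precision. The script was tested on simulated data. Alternatives were a batch block, a replicate block, each batch alone, quantile normalization, median centring, a filter on low values, a trended and robust variance, array weights, each array left out and, for training, each region alone.

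The members and lists (cell type markers and 30 channel partners) were chosen with earlier results of these data known. Pool values are given for up to 12 called genes with the largest difference in each direction, other called genes by their difference, and, for training, the 3 genes with the smallest p where none was called. For partners the 3 largest called differences in each direction are named. Members with values singled out beyond this were chosen after their values were seen. Upstream sequences were copied from a RefSeq table.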

Additional observations from a re-analysis of the deposited data

How the results depend on the processing

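The count of 22 channel genes called between regions stayed within 1.5 times under every alternative run, and ranged from 21 to 23 when single arrays were left out (6 higher, 15 to 17 lower). With batch as a block, or with the replicate number as a block, 22 genes passed between regions, 20 in control mice and 18 in trained mice, and Kcnh2 in control mice lost its call (limma adjusted p = 0.0560 and 0.0672). The deviations of 18 same-number pairs correlated at -0.27 to 0.04. These values cannot settle whether pools shared mice or littermates. The deviations were taken from means of 3 pools, and number 3 is also batch 2. In the paper, each trained mouse had a control littermate of the same sex, and both tissues were taken from the mice. How these mice fell into pools was not given, and the pools were fitted as independent. Batch 1 alone moved the count in control mice from 21 to 11 (2 higher, 9 lower) and the higher genes in trained mice from 5 to 2, with 8 arrays fitted. It also took the call from Kcne2 (adjusted p = 0.0760). Leaving out single arrays gave 16 to 21 calls in control mice (5 to 6 higher, 11 to 15 lower) and 17 to 19 in trained mice (4 to 5 higher, 13 to 14 lower). In batch 2 alone, which has 1 array a group and no test, the training difference of Kcna10 in HC was -0.24 and the region by training value of Kcnq1 was -0.16, both opposite in sign to the values above, and the cause was not tested. No training call appeared under any alternative.

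Signal limits the 8 of the 47 genes that averaged below the receptor 95th percentile of 2.76. Kcna5 and Kcnh6 averaged little above it, at 2.96 and 2.99. Of the genes called higher in HC, Kcne2 (2.80 to 3.15) and Kcng2 (3.01 to 3.21) had ACC values not far above it. With pooled animals, biological and technical spread cannot be told apart.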
